A study of Homo sapiens with 12 samples.

Results

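The genes described are 31 genes of cholesterol and fatty acid synthesis and their main regulators, chosen by name. For each, the transcript cluster annotated with that gene alone was taken, and where a gene had several such clusters the one with the highest mean over the 12 arrays. In this way 29 of the 31 were measured, among 21214 transcript clusters with a gene name. They were 19 genes of the sterol arm and 10 genes of the fatty acid arm. FDFT1 had no cluster of its own name and is not analysed here, and HSD17B7 was named only on a cluster shared with its pseudogene HSD17B7P2.

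The arrays measured total RNA of U87, an established human glioblastoma cell line, to compare the expression profiles left by 3 steroid treatments after 72 h. Cells received the vehicle (V), allopregnanolone (3α-THP) at 10 nM, progesterone (P4) at 10 nM or finasteride (F) at 100 nM, and each treatment had 3 arrays, numbered 1 to 3 as biological replicates. P4 is the precursor from which cells make 3α-THP, and F is a synthetic steroid that inhibits the 5α-reductases on that route. In all groups the medium had been changed 24 h earlier to phenol red-free DMEM with charcoal-stripped serum, a serum poor in steroids. The vehicle is given as 0.1% DMSO in the sample characteristics, the design text and the study's methods, and as 10% only in the treatment protocol of the labels. U87 is a single line, so the values describe this line only.

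Cells make cholesterol from acetyl-CoA through mevalonate, isoprenoids, squalene and lanosterol, and they make fatty acids from the same acetyl-CoA through malonyl-CoA. Both routes are under transcription factors of the SREBP family, which are held in the endoplasmic reticulum with SCAP and INSIG proteins while sterols are plentiful and are cut and released to the nucleus when sterols run low. SREBF2 encodes the factor best known for the sterol genes and SREBF1 the one best known for the fatty acid genes. Serum lipoproteins supply cholesterol to cultured cells, so the activity of both routes in culture depends on the medium.

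The promoters of SREBF2, FDPS and DHCR7, members of the sterol arm chosen after their values under 3α-THP were seen, are shown with their matches to letters often searched for in such genes. The windows run from 250 bases before to 50 bases after the gene start of RefSeq (GRCh38.p14), and capitals mark a match to TCACNCCAC, a core form of the sterol regulatory element, or to CCAAT, the box of NF-Y, which reads ATTGG when it lies on the other strand. The SREBF2 window is chr22:41832855-41833154 on the plus strand, the FDPS window chr1:155308616-155308915 on the plus strand and the DHCR7 window chr11:71448344-71448643 on the minus strand.
SREBF2: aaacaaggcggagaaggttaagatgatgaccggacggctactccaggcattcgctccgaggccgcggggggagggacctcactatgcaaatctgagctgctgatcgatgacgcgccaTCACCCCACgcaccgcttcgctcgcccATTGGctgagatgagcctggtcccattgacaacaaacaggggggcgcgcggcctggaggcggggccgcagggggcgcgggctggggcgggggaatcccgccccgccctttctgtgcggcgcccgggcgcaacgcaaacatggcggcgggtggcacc
FDPS: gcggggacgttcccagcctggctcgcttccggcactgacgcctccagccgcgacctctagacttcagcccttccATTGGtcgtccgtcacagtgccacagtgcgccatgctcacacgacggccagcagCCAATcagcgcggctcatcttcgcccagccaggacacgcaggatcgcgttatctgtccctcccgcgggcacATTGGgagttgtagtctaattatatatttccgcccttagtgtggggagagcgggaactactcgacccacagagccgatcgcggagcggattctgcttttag
DHCR7: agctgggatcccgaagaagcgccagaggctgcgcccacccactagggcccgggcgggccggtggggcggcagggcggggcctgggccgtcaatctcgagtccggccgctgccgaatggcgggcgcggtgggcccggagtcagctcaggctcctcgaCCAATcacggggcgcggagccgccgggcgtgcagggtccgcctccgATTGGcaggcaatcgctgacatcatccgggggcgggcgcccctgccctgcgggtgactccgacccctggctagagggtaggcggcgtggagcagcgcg

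A promoter was given for 27 of the 29 members, and where a gene had several the first was used. TCACNCCAC stood in 1 of the 27, that of SREBF2, against 1.15% of 27305 RefSeq promoters searched on both strands. CCAAT stood in 14 of 18 promoters of the sterol arm and in 3 of 9 of the fatty acid arm, against 35.7% of all promoters. SREBF2 held 1 such box, DHCR7 held 2 and FDPS held 3. The E-box CACGTG stood in 4 of the 27, those of LSS, SC5D, INSIG1 and SCAP, against 7.43% of all. The GC box GGGCGG stood in 25 of the 27, against 44.6% of all promoters and 60% of those of genes on the array. A match is a run of letters in a window and does not show that a factor binds there. A missing match does not show that a gene lacks the element, since 1 form was searched in 1 window of 300 bases per gene.

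The medians of the 12 arrays lay between 6.35 and 6.40 (log2 values of the tested clusters). Of the markers listed for U87 cells, VIM, CD44, SPARC and FN1 had mean log2 values of 12.49, 11.85, 13.11 and 13.16. NES (5.96) and the glial markers GFAP (6.17) and S100B (3.77), from the same list, lay below the median of 6.37. Of 11 markers of immune, endothelial, neuronal, oligodendrocyte and epithelial cells, none passed the threshold in any comparison. Over all clusters the share past it ran from 0.0236 to 0.679%. At an unadjusted p under 0.05 (limma), SYT1 was higher and KRT19 lower with 3α-THP than with V, against 7.34% of all clusters. RBFOX3 was higher with P4 (against 1.82%) and with F (against 4.69%). SYT1 was also higher with 3α-THP than with P4, against 3.96%. The means of the 11 markers ran from 2.95 for PTPRC to 5.98 for RBFOX3, below the median. Levels of different clusters are not compared further, since each has probes of its own.

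Every comparison below rests on limma fitted to all 12 arrays with treatment as the only term, and on the threshold used by the study, a change of more than 1.5-fold together with an unadjusted p under 0.05. Log2 fold changes are given with limma's standard error (SE), and adjusted p-values are Benjamini-Hochberg values over all 21214 clusters. The 3 V arrays are the control of all 3 steroids, so the 3 comparisons against V are not independent of one another. Arrays with the same number deviated together, and where a fit with the replicate number as a block moves a count, that count is given as well.

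With 3α-THP, 28 of the 29 members had a lower mean than with V, by small amounts, and no member passed the threshold or an adjusted p of 0.05. The median log2 fold change was -0.17 in the sterol arm and -0.20 in the fatty acid arm, equal to -11.4 and -12.6%, beside -0.03 over all tested clusters. All 10 members of the fatty acid arm and 18 of the 19 of the sterol arm lay below 0, as did 58.9% of all clusters. The log2 fold changes ran from -0.42 for DHCR7 to 0.02 for TM7SF2. Past the threshold were 0.679% of all clusters, and an adjusted p under 0.05 was reached by 0.00471%.

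At the unadjusted p alone, 7 of the 29 members were under 0.05, all lower than V. In the sterol arm these were MVK, FDPS, LSS, DHCR7 and SREBF2, and in the fatty acid arm SREBF1 and FADS2. The background share at that p was 7.34% in both directions and 4.09% in the lower one. Blocking on the replicate number gave a count of 12 against a background of 13.4%, and HMGCS1, CYP51A1, MSMO1, FASN and ACLY joined the 7. The one-way analysis of variance of the methods counted 6 against 7.74%. In 9 members every 3α-THP array lay under every V array, against 7.28% of all clusters, and these were MVK, FDPS, LSS, SREBF2, SCAP, FASN, ACSS2, FADS2 and ELOVL6. The 95% interval stayed within 1.5-fold for 22 members and reached beyond it for 7, always on the lower side.

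**Figure D1:**
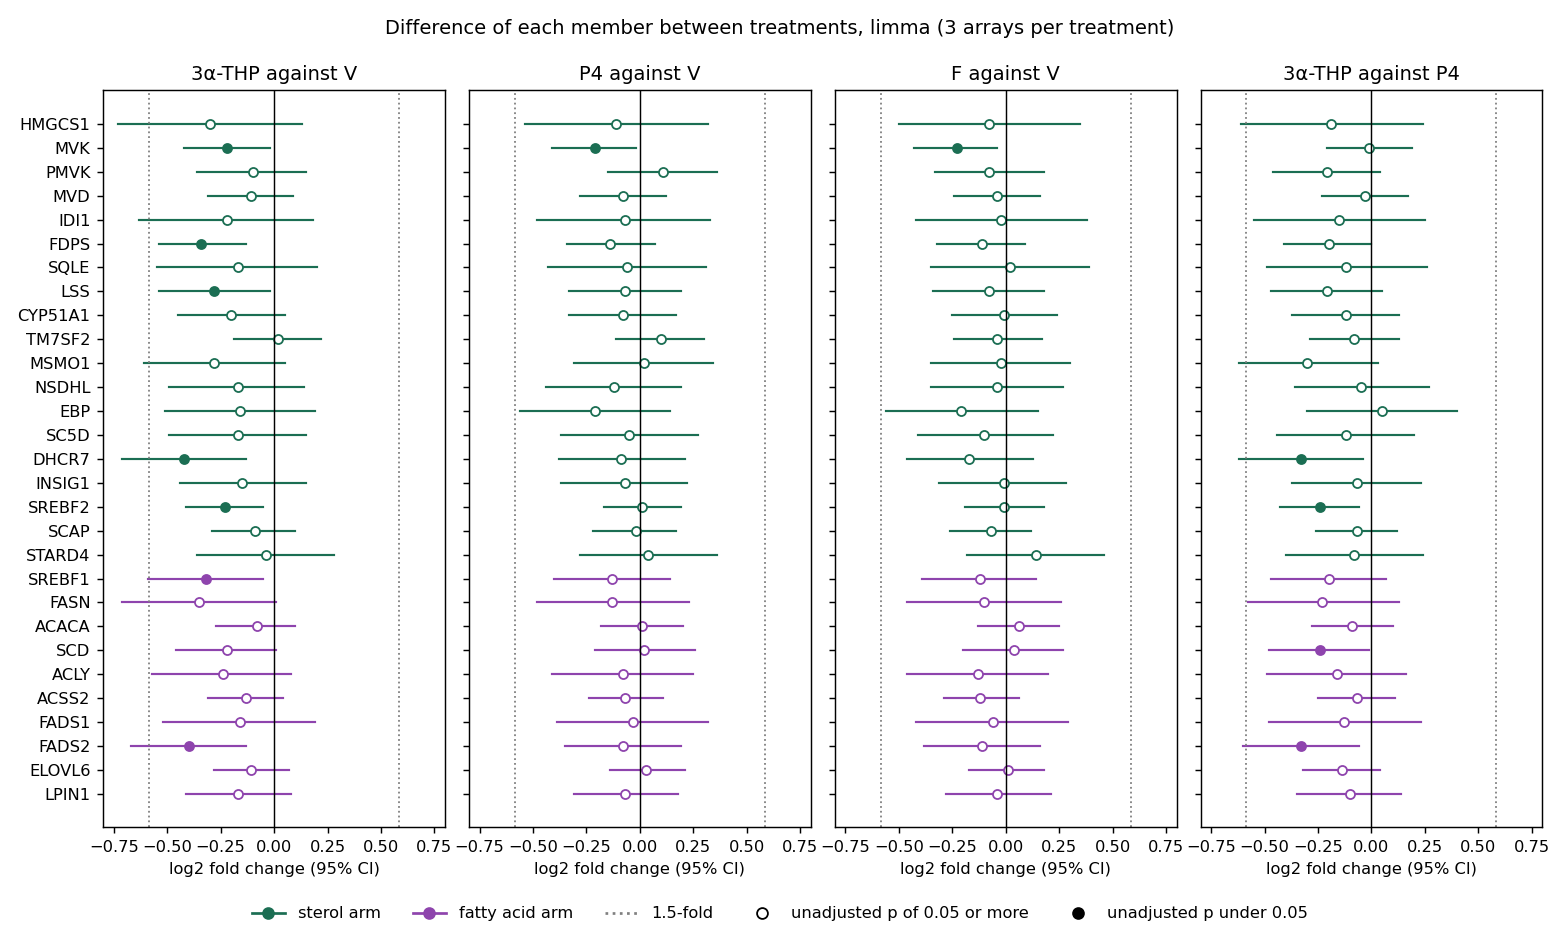
Log2 fold change of each of the 29 members (rows, grouped by arm) in 4 comparisons (panels), with bars for limma's 95% interval and dotted lines at 1.5-fold. Filled points have an unadjusted p under 0.05: 7 with 3α-THP, 1 with P4, 1 with F and 4 between 3α-THP and P4, and all lie left of 0.

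Among the early enzymes, HMGCS1 makes the HMG-CoA from which mevalonate comes. Its log2 values were 8.01, 8.57 and 8.52 in V, 7.86, 7.92 and 8.43 with 3α-THP, 8.05, 8.33 and 8.38 with P4, and 7.92, 8.51 and 8.45 with F, in the order of replicates 1 to 3. The first array was the lowest of its group in all 4 treatments, and the groups overlapped. Under 3α-THP the log2 fold change was -0.30 (SE 0.197, limma, adjusted p = 0.813).

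MVK, mevalonate kinase, was the only member with an unadjusted p under 0.05 for all 3 steroids. It measured 6.34, 6.38 and 6.29 in V, 6.09, 6.01 and 6.25 with 3α-THP, 6.02, 6.24 and 6.11 with P4, and 6.06, 6.22 and 6.03 with F. All 9 steroid arrays lay under the 3 V arrays. The log2 fold changes were -0.22 for 3α-THP, -0.21 for P4 and -0.23 for F (SE 0.0909 each, limma, adjusted p = 0.624, 1 and 0.936). All 3 share the V arrays, whose SD here was 0.0455, and 3α-THP and P4 differed by -0.01 with a 95% interval of -0.21 to 0.19.

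FDPS, which makes farnesyl diphosphate for both sterols and protein prenylation, had the lowest unadjusted p of all members under 3α-THP. Its log2 values were 7.30, 7.57 and 7.34 in V, 7.05, 7.06 and 7.08 with 3α-THP, 7.29, 7.33 and 7.18 with P4, and 7.18, 7.43 and 7.25 with F. The 3 arrays with 3α-THP lay under the other 9, with an SD of 0.0155. The log2 fold change against V was -0.34 (SE 0.0948, a difference of -21.0%, limma, adjusted p = 0.432), against -0.14 for P4 and -0.11 for F. FDPS is also named on clusters shared with its pseudogene FDPSP2, so part of its signal may be shared. IDI1, the isomerase one step earlier, spread more widely within treatments, at 8.31, 9.08 and 8.74 in V and 8.28, 8.55 and 8.64 with 3α-THP. With P4 it stood at 8.51, 8.87 and 8.53 and with F at 8.49, 8.97 and 8.60, so that replicate 2 was the highest in 3 of the treatments.

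Of the enzymes from squalene on, SQLE, the squalene epoxidase, measured 8.74, 9.35 and 9.15 in V, 8.68, 8.86 and 9.18 with 3α-THP, 8.84, 9.11 and 9.12 with P4, and 8.84, 9.26 and 9.22 with F. Here too replicate 1 was the lowest in every treatment, and the groups overlapped. MSMO1, which removes methyl groups from the sterol ring, measured 10.40, 10.80 and 10.77 in V, 10.34, 10.09 and 10.70 with 3α-THP, 10.57, 10.76 and 10.68 with P4, and 10.45, 10.75 and 10.68 with F. Its 3α-THP replicate 2 was the lowest of the 12 arrays, and the log2 fold change against V was -0.28 (SE 0.151, limma, adjusted p = 0.737).

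EBP, a sterol isomerase, measured 8.53, 9.13 and 8.70 in V, 8.39, 8.78 and 8.71 with 3α-THP, 8.43, 8.75 and 8.55 with P4, and 8.45, 8.83 and 8.46 with F. Replicate 2 was the highest in each treatment. Under P4 and under F the log2 fold change was -0.21 (SE 0.162, limma, adjusted p = 1 and 0.999), and with the block EBP joined MVK at an unadjusted p under 0.05 for both. TM7SF2, a sterol reductase, was the single member with a log2 fold change above 0 under 3α-THP, with 6.38, 6.37 and 6.22 in V, 6.37, 6.19 and 6.46 with 3α-THP, 6.33, 6.37 and 6.56 with P4, and 6.35, 6.23 and 6.29 with F.

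DHCR7, the enzyme of the last step to cholesterol, had the largest log2 fold change of the 29 members under 3α-THP. Its log2 values were 9.56, 10.01 and 9.83 in V, 9.37, 9.18 and 9.59 with 3α-THP, 9.62, 9.89 and 9.63 with P4, and 9.51, 9.78 and 9.62 with F. Replicate 3 with 3α-THP lay just above V replicate 1, so the groups overlapped. The log2 fold change was -0.42 (SE 0.136, a difference of -25.2%, limma, adjusted p = 0.536), and by replicate number it was -0.20, -0.83 and -0.23.

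**Figure D2:**
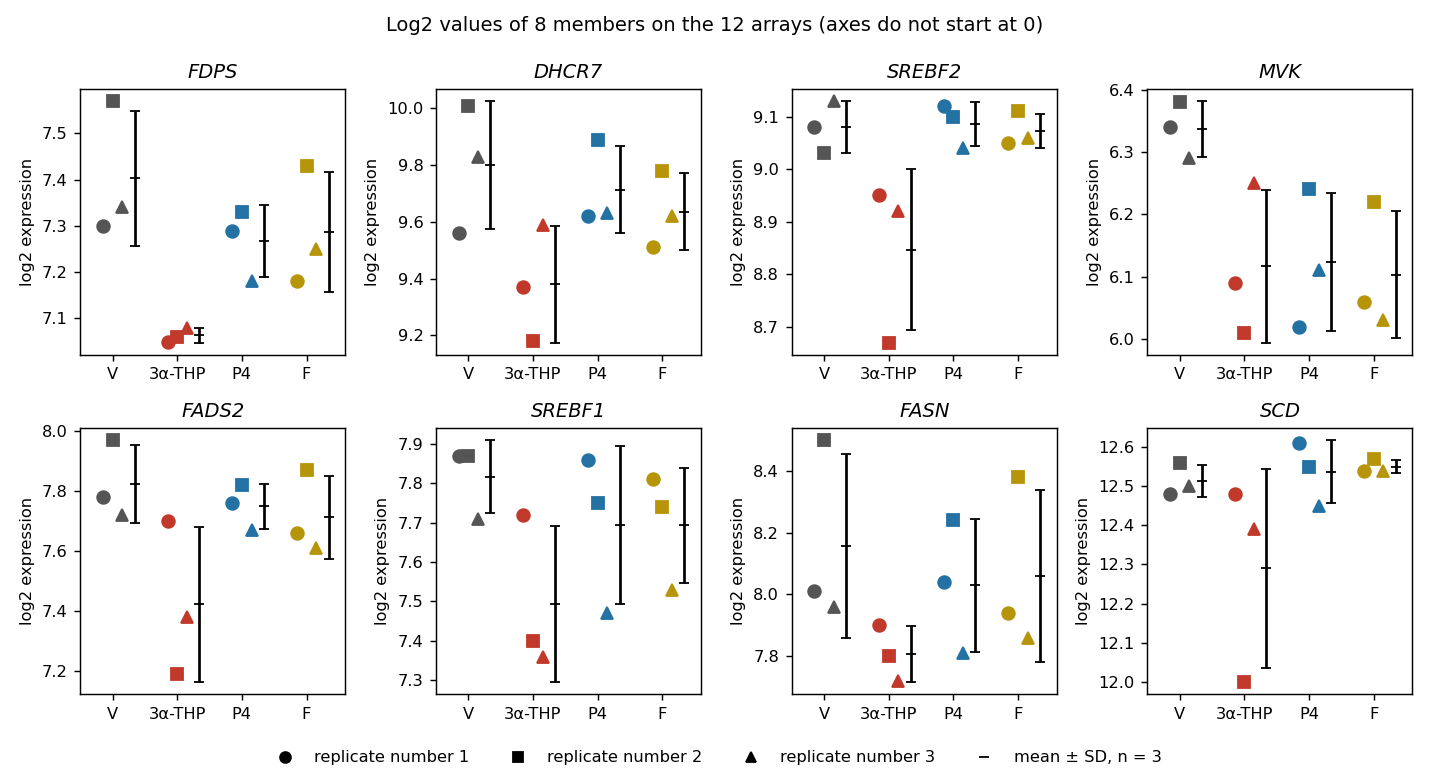
Log2 value of 8 members on each of the 12 arrays (points, symbols by replicate number) for V, 3α-THP, P4 and F, with the mean and SD of 3 arrays as a bar. FDPS with 3α-THP lies between 7.05 and 7.08, under the other 9 arrays, and SCD lies between 12.39 and 12.61 on all arrays except 3α-THP replicate 2 at 12.

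SREBF2, the sterol factor itself, was steady in 3 of the 4 treatments, at 9.08, 9.03 and 9.13 in V, 9.12, 9.10 and 9.04 with P4, and 9.05, 9.11 and 9.06 with F. With 3α-THP it measured 8.95, 8.67 and 8.92, under all 9 other arrays. The log2 fold change was -0.23 against V (SE 0.0846, limma, adjusted p = 0.607), 0.01 for P4 and -0.01 for F. INSIG1, which retains the SREBP factors and is itself one of their targets, measured 10.35, 10.66 and 10.54 in V and 10.15, 10.33 and 10.63 with 3α-THP. With P4 it stood at 10.24, 10.52 and 10.56 and with F at 10.35, 10.66 and 10.50, and the log2 fold changes were -0.15, -0.07 and -0.01.

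In the fatty acid arm SREBF1 measured 7.87, 7.87 and 7.71 in V, 7.72, 7.40 and 7.36 with 3α-THP, 7.86, 7.75 and 7.47 with P4, and 7.81, 7.74 and 7.53 with F. Replicate 3 was the lowest in each treatment, and the arrays of V and 3α-THP overlapped in 1 value. The log2 fold change under 3α-THP was -0.32 (SE 0.124, limma, adjusted p = 0.608), against -0.13 for P4 and -0.12 for F.

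ACLY, which splits citrate to acetyl-CoA for both arms, measured 9.72, 10.04 and 9.71 in V, 9.55, 9.83 and 9.38 with 3α-THP, 9.84, 9.90 and 9.50 with P4, and 9.65, 9.93 and 9.51 with F. ACSS2, which makes acetyl-CoA from acetate, measured 6.97, 7.08 and 7.03 in V, 6.92, 6.91 and 6.85 with 3α-THP, 7.01, 6.99 and 6.88 with P4, and 6.93, 7.02 and 6.78 with F. For ACSS2 the 3α-THP arrays all lay under V, at a log2 fold change of only -0.13 (SE 0.0820, limma, adjusted p = 0.788).

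FASN, the fatty acid synthase, measured 8.01, 8.50 and 7.96 in V, 7.90, 7.80 and 7.72 with 3α-THP, 8.04, 8.24 and 7.81 with P4, and 7.94, 8.38 and 7.86 with F. The 3α-THP arrays lay under the V arrays, and replicate 2 was the highest array in the other 3 treatments. The log2 fold change was -0.35 (SE 0.166, limma, adjusted p = 0.694). ELOVL6, which lengthens palmitate, had a log2 fold change of -0.11 (SE 0.0816, limma, adjusted p = 0.850), with 7.93, 8.06 and 7.98 in V and 7.82, 7.91 and 7.92 with 3α-THP. Its values were 8.02, 8.08 and 7.96 with P4 and 7.90, 8.11 and 7.96 with F.

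Among the desaturases, SCD, which makes monounsaturated fatty acids, measured 12.48, 12.56 and 12.50 in V, 12.48, 12 and 12.39 with 3α-THP, 12.61, 12.55 and 12.45 with P4, and 12.54, 12.57 and 12.54 with F. A single array, 3α-THP replicate 2, stood apart, and the log2 fold change of -0.22 (SE 0.109, limma, adjusted p = 0.709) was 0.01, -0.56 and -0.12 by number. FADS2, which acts on polyunsaturated fatty acids, measured 7.78, 7.97 and 7.72 in V, 7.70, 7.19 and 7.38 with 3α-THP, 7.76, 7.82 and 7.67 with P4, and 7.66, 7.87 and 7.61 with F. All 3α-THP arrays lay under V, the first by a narrow margin, and the log2 fold change was -0.40 (SE 0.125, limma, adjusted p = 0.501). FADS1, its neighbour in that route, measured 9.59, 10.09 and 9.59 in V, 9.37, 9.76 and 9.65 with 3α-THP, 9.73, 9.91 and 9.52 with P4, and 9.60, 9.97 and 9.50 with F, and the groups overlapped.

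The other 10 measured members were PMVK, MVD, LSS, CYP51A1, NSDHL, SC5D, SCAP, STARD4, ACACA and LPIN1. Their log2 fold changes ran from -0.28 (LSS) to -0.04 (STARD4) with 3α-THP, from -0.12 to 0.11 with P4 and from -0.10 to 0.14 with F. CYP51A1 had a second cluster of its own name, which gave -0.21 with 3α-THP where the one used gave -0.20.

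P4 left the members closer to V. The median log2 fold change was -0.07 in either arm, beside -0.01 over all clusters, and the members ran from -0.21 to 0.11. None of the 29 passed the threshold, as 0.0236% of all clusters did, and adjusted p was 1 for every member (limma). MVK alone had an unadjusted p under 0.05, against a background of 1.82% (analysis of variance, 1 member against 2.27%), and with the block 2 members did, against 3.8%. Below 0 lay 14 of 19 sterol members and 7 of 10 fatty acid members, beside 56.1% of all clusters. MVK was the only member whose P4 arrays all lay under the V arrays, against 3.47% of all clusters. All 29 intervals stayed within 1.5-fold.

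With F, at a dose 10 times that of the other steroids, the medians were -0.04 for the sterol arm and -0.08 for the fatty acid arm, beside -0.02 over all clusters. None of the members passed the threshold, against 0.396% of all clusters, and the adjusted p-values (limma) ran from 0.936 to 0.999. MVK had an unadjusted p under 0.05, against a background of 4.69% (analysis of variance, 1 member against 4.87%), and with the block MVK and EBP did, against 8.54%. Below 0 lay 17 of 19 sterol members and 7 of 10 fatty acid members, beside 58.2% of all clusters. MVK was also the only member whose F arrays all lay under the V arrays, against 5.51% of all clusters. Again all 29 intervals stayed within 1.5-fold. Because its dose differed, F was set beside 3α-THP and P4 and was not tested against them.

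3α-THP and P4, a steroid and its precursor at the same dose, make 1 pair that could be compared directly. The arrays are those already compared with V, so this comparison is not independent of those against V. The members were lower with 3α-THP in 28 of 29 cases, as were 55.2% of all clusters, with medians of -0.12 in the sterol arm and -0.15 in the fatty acid arm beside -0.01 over all clusters. No member passed the threshold, against 0.25% of all clusters, and adjusted p was 0.999 for each (limma). DHCR7 (-0.33), FADS2 (-0.33), SREBF2 (-0.24) and SCD (-0.24) had an unadjusted p under 0.05, 4 members against a background of 3.96%. The analysis of variance counted 3 against 4.08%, and the block 9 against 9%. For SREBF2 the 95% interval of the difference was -0.43 to -0.06, for DHCR7 it was -0.62 to -0.04 and for FADS2 it was -0.60 to -0.06. In 4 members, FDPS, DHCR7, SREBF2 and ELOVL6, every 3α-THP array lay under every P4 array, against 5.1% of all clusters. The intervals stayed within 1.5-fold for 25 members and reached beyond it on the lower side for the other 4, HMGCS1, MSMO1, DHCR7 and FADS2.

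The lower values under 3α-THP were not spread evenly over the replicate numbers. When each 3α-THP array was set against its same-numbered V array, the median difference of the sterol arm was -0.13, -0.39 and -0.07 for numbers 1 to 3, and that of the fatty acid arm -0.09, -0.35 and -0.15. Over all tested clusters it was -0.06, 0 and -0.01. In 19 of the 29 members the 3α-THP array was lower in all 3 numbers, against 23.1% of all clusters. For P4 the medians by number were 0.05, -0.14 and -0.09 in the sterol arm, and for F they were -0.02, -0.09 and -0.07.

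V and 3α-THP replicate 2 deviated in opposite directions. V replicate 2 was above the member's own 12-array mean in 29 of 29 members, by a median of 0.21, and it was the highest of the 12 arrays in 19 of them, against 9.9% of all clusters. Replicate 2 was also above that mean in 28 members with P4 and in 27 with F. With 3α-THP replicate 2 was above it in only 5, with a median deviation of -0.16, and it was the lowest of the 12 arrays in 11 members, against 16.4% of all clusters. 3α-THP replicate 1 was likewise above it in only 5 members, with a median of -0.11, and was the lowest array in 11 others, against 12.1%. In the sterol arm replicate 1 lay lower than replicate 2, at -0.24 against -0.17. For the counts above the mean and the median deviations, the values over all clusters were not computed. Those counts and medians thus cannot be read as particular to the members.

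**Figure D3:**
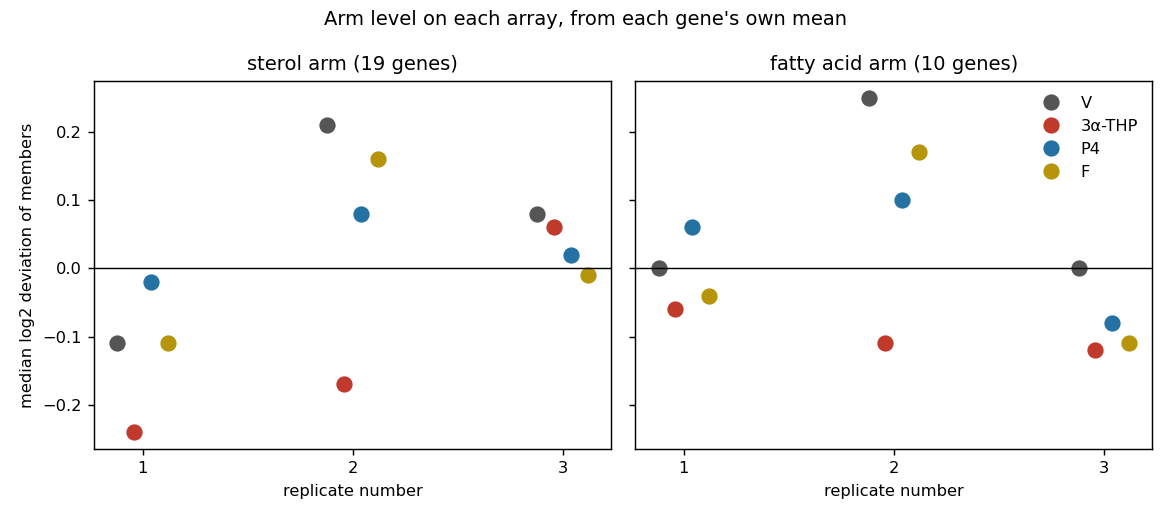
Median deviation of the members from their 12-array means (log2) on each array, for the sterol arm (19 genes) and the fatty acid arm (10 genes). V replicate 2 lies at 0.21 and 0.25, P4 and F replicate 2 also lie above 0, and the 3α-THP arrays 1 to 3 lie at -0.24, -0.17 and 0.06 in the sterol arm and at -0.06, -0.11 and -0.12 in the fatty acid arm.

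Without the 4 arrays of number 2, the median of the 29 members under 3α-THP was -0.09 beside -0.04 over all clusters, 25 of 29 lay below 0, and FDPS alone had an unadjusted p under 0.05 (3.45% of members against 7.18% of all clusters). With the block and without number 2 there were 4, against 9.77% of all clusters, of which 3 were lower than V, FDPS (-0.25), SREBF1 (-0.25) and ACLY (-0.26), and STARD4 was higher (0.21). Without number 2 STARD4, a carrier of cholesterol between membranes, therefore had the opposite sign to its value over all arrays. The sign of SC5D and ACACA also changed without number 2. Leaving out V replicate 2 alone gave a median of -0.09 and 4 members, all lower, against 8.65% of all clusters, and with the block 8 against 12.8%. Leaving out 3α-THP replicate 2 alone gave a median of -0.17 and again 4 lower members, against 6.18%, and with the block 6 against 8.64%. Between 3α-THP and P4, no member had an unadjusted p under 0.05 without number 2, against 3.41% of all clusters (limma). Without V replicate 2 the medians for P4 and F were 0.02 and 0.03, and 12 and 14 of the 29 members lay below 0.

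**Figure D4:**
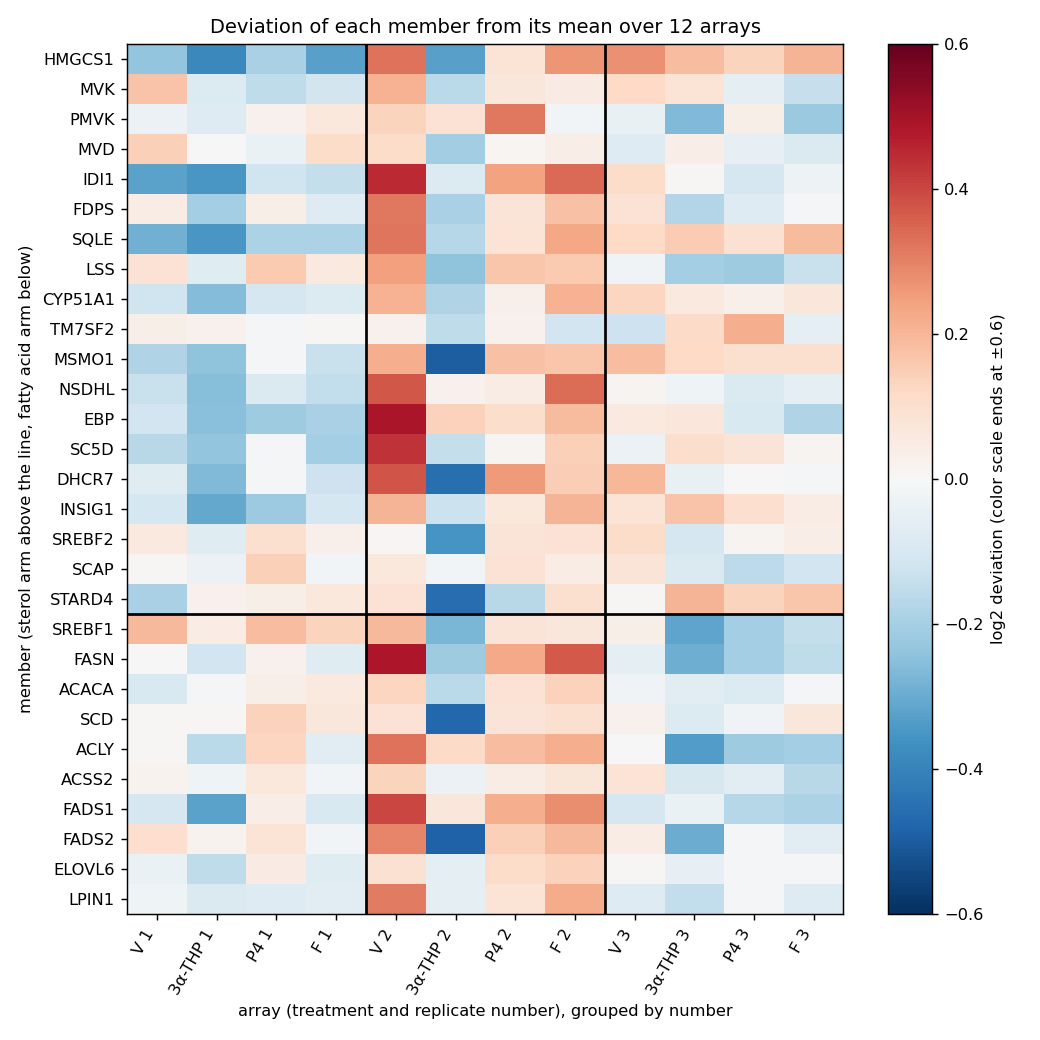
Deviation of each of the 29 members from its own 12-array mean (colour, log2) on the 12 arrays, which are grouped by replicate number. The arrays of number 2 are above the mean in most members except with 3α-THP, and number 1 is below it in many sterol members.

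In 16 of the 29 members the replicate number held a larger share of the sum of squares over the 12 arrays than the treatment did, as in 56.9% of all clusters. In a limma fit of treatment and number, 10 of the 29 members differed between numbers at an adjusted p under 0.05, against 16.1% of all clusters. The 6 of the sterol arm were EBP (0.00531), HMGCS1 (0.00849), SQLE (0.00874), IDI1 (0.0118), NSDHL (0.0196) and INSIG1 (0.0343), and the 4 of the fatty acid arm were ACLY (0.00471), FADS1 (0.0124), FASN (0.0260) and SREBF1 (0.0266), with limma's adjusted p in parentheses. The count dropped to 6 when V replicate 2 or F replicate 2 was left out. The share of all clusters in those fits was not computed, so this drop cannot be read as particular to the members. Across the members the number held a median of 40.3% of that sum and the treatment 30.6%, where all clusters had 28.7 and 20.7%. The shares are not corrected for the number of groups, 4 treatments and 3 replicate numbers. A share of the treatment and one of the number are therefore not on the same footing. The treatment held its largest shares in SREBF2 (68.8%), FDPS (66.6%), MVK (59.3%), FADS2 (56.5%) and DHCR7 (52.1%), none of which is among the 10. The part of the replicate number in the lower values under 3α-THP was not tested beyond these fits.

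**Figure D5:**
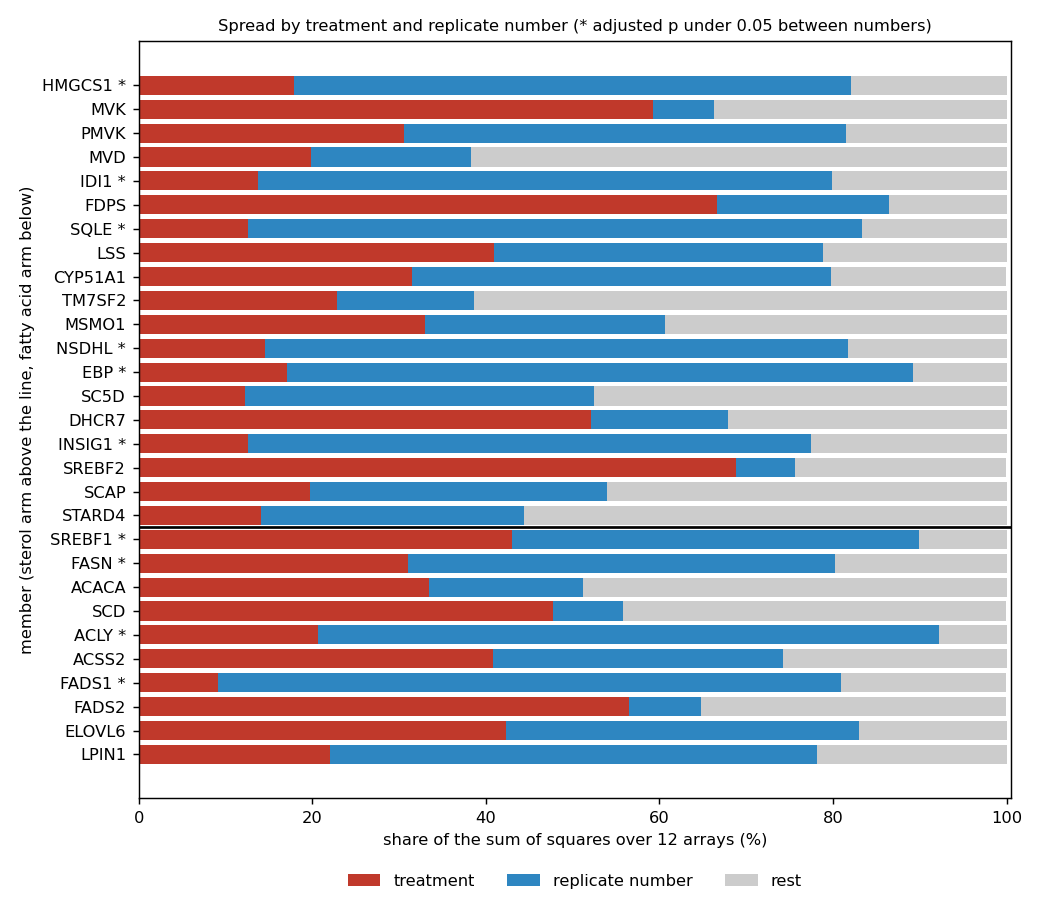
Share of each member's sum of squares over the 12 arrays (percent, stacked bars) held by treatment, by replicate number and by the rest, with an asterisk where the numbers differed at an adjusted p under 0.05. The 10 asterisks include EBP, ACLY, FADS1 and SQLE, in which the number holds over 70% of the sum.

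The arms differed in which number was low. Number 1 had the lowest mean of the 3 in 12 of 19 sterol members but in 1 of 10 fatty acid members, against 27% of all clusters, and number 3 had it in 4 of the sterol and in 8 of the fatty acid members, against 30.3%. Number 2 was the highest in 10 and in 7, against 32.6%. HMGCS1, for example, had means of 7.96, 8.33 and 8.44 for numbers 1 to 3, and ACLY had 9.69, 9.92 and 9.53. The difference between the arms was not tested.

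Other genes of the same pathways, from 3 further lists, did not pass the threshold in any of the 4 comparisons. Over all clusters the share past it ran from 0.0236 to 0.679%. Of 19 other sterol and isoprenoid genes 18 were measured, with a median log2 fold change of -0.03 under 3α-THP, and only ERG28, a scaffold of the demethylating enzymes, was under an unadjusted p of 0.05, at -0.27 (SE 0.105, limma, adjusted p = 0.611), against a background of 7.34%. With the block 2 were, ERG28 and NPC2 (-0.16), against 13.4%. Of 20 other fatty acid and glycerolipid genes 18 were measured, also with a median of -0.03. Of these 1 was under an unadjusted p of 0.05, against the same 7.34%, and with the block 3 were, of which 2 were lower (MID1IP1 and PNPLA3) and 1 higher (ELOVL7), against 13.4%. MID1IP1, an activator of acetyl-CoA carboxylase, had a log2 fold change of -0.30 (SE 0.0771, limma, adjusted p = 0.406). It measured 8.41, 8.52 and 8.44 in V and 8.19, 8.14 and 8.14 with 3α-THP. Every 3α-THP array thus lay under every V array, as in 7.28% of all clusters. MID1IP1 was also lower with F, at -0.19 against V (SE 0.0771, limma, adjusted p = 0.955). With F it and GGPS1 (-0.20), of the other sterol genes, were under an unadjusted p of 0.05. This made 1 of 18 in each of these lists, against 4.69% of all clusters. Between 3α-THP and P4, MID1IP1 alone of the 3 lists was under that p without the block. It was lower with 3α-THP, at -0.18, 1 of 18 in its list against 3.96% of all clusters. ELOVL7, an elongase of long fatty acids, was higher with 3α-THP, at 0.40 against V (SE 0.235, limma, adjusted p = 0.778) and 0.48 against P4 (adjusted p = 0.999). Of 9 genes of the liver X receptors, sterol export and oxysterols 8 were measured, with a median of -0.05. None of the 8 was under an unadjusted p of 0.05 without the block, against 7.34% of all clusters. With the block 1 of the 8 was, CH25H, which makes an oxysterol, against 13.4% of all clusters. Its log2 fold change was -0.25 (SE 0.159, limma without the block, adjusted p = 0.80).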

How the data were processed

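Total RNA of U87 cells was hybridised to 12 Affymetrix Human Gene 1.0 ST arrays, 3 per treatment. The deposited table holds a log2 value for each transcript cluster and array, which the authors made with Affymetrix Expression Console 1.4 according to the submitters' processing notes. The methods name quantile normalization, whether it also made the deposited table is not given in the sources used here, and the nearly equal array medians show only that the arrays were scaled. Genes were named from the platform annotation, and the 1754 clusters with several genes, among them 2 shared by FDPS and 1 by HSD17B7, were not used for members.

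The package limma 3.58.1 (R 4.3.3) was used to fit 1 mean per treatment with moderated variances. P-values were adjusted by Benjamini-Hochberg over 21214 named clusters. The fit was tested on simulated data, whose noise was drawn independently for each array. The treatment comparisons were thus not tested under a deviation shared by arrays with the same number. Arrays are labelled as biological replicates and the design speaks of independent experiments. Deviations from the treatment means correlated at 0.132 to 0.631 for 18 pairs of arrays with the same number (median 0.40). For 36 other pairs the correlation ran from -0.604 to 0.226 (median -0.245), so the ranges overlapped. Deviations sum to 0 within each treatment, so the other pairs are no separate evidence. The numbers were taken to pair the arrays, and blocked counts are given beside the unpaired ones. Per-array values are given for the 4 members of each arm with the smallest p in each comparison, the 6 with the smallest p between numbers, and 7 set members (INSIG1, HMGCS1, SQLE, FASN, SCD, SREBF1 and SREBF2). The members and lists were chosen with earlier results of these data known. Alternatives changed the block, the arrays fitted, the test, the normalization, the filter on the dimmest 30% of clusters, the variance prior and the clusters per gene. Fits that join the block with leaving out arrays, and counts at the unadjusted p alone, were added after the data were seen. The precision of all values is limited by 3 arrays per treatment.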

Additional observations from a re-analysis of the deposited data

How the results depend on the processing

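No member passed the threshold in any of the 4 comparisons under any alternative. For single members, 19 differences chosen after their values were seen were followed under 20 alternatives, and none reversed. They were 13 of 3α-THP against V, 1 each of P4 and F against V and 4 of 3α-THP against P4. Members outside these 19 differences did reverse under 3α-THP without number 2, namely STARD4, SC5D and ACACA. In that setting 25 of 29 members lay below 0, against 28 over all arrays. Of the values of the 19 differences under these alternatives, 308 kept their direction and their side of an unadjusted p of 0.05. Another 53 moved to the other side of that p by losing it and 19 by reaching it. The replicate block gave 12, 2, 2 and 9 members at an unadjusted p under 0.05 for 3α-THP, P4 and F against V and for 3α-THP against P4, where the unpaired fit gave 7, 1, 1 and 4. It changed no call at the threshold or at the adjusted p. Without number 2 those counts were 1 for 3α-THP against V (7.18% of all clusters) and 0 for 3α-THP against P4 (3.41%), and with the block as well 4 for 3α-THP against V (9.77%), 3 lower and 1 higher. Leaving out 1 array at a time, the counts ran from 4 to 9 for 3α-THP against V (5.47 to 9.78% of all clusters), from 0 to 1 for P4 (1.66 to 2.97%), from 0 to 1 for F (2.97 to 6.7%) and from 1 to 7 for 3α-THP against P4 (2.63 to 7.7%). The arm medians then ran from -0.29 to -0.08 (sterol) and -0.24 to -0.12 (fatty acid) for 3α-THP, from -0.17 to 0 and -0.12 to 0.05 for P4, from -0.15 to 0 and -0.16 to 0.05 for F, and from -0.21 to -0.07 and -0.26 to -0.10 for 3α-THP against P4. The highest P4 and F fatty acid medians, 0.05, came without V replicate 2. The number of members that differed between replicate numbers ran from 6 to 13 over the alternatives, for which the share of all clusters was not computed. The cause of these shifts was not tested.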

Other observations

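Among the other sterol genes, 7 of 18 differed between replicate numbers at an adjusted p under 0.05 (limma), as did 4 of 18 of the other fatty acid genes, against 16.1% of all clusters. TMEM97, which takes part in cholesterol handling, had the lowest adjusted p of them, 0.000169. Its log2 values were 7.11, 8.29 and 7.63 in V, 7.28, 8.24 and 7.51 with 3α-THP, 7.31, 7.98 and 7.64 with P4, and 7.41, 8.12 and 7.57 with F. Replicate 2 was the highest in each treatment, also with 3α-THP. NPC1, a lysosomal cholesterol exporter, had means of 8.86, 9.32 and 9.27 for numbers 1 to 3, and SOAT1, which esterifies cholesterol, had 7.96, 8.55 and 8.19. Of the 8 measured genes of the liver X receptors, sterol export and oxysterols 1 differed, against the same 16.1%. This was CH25H, with means of 9.11, 8.91 and 8.74 (limma, adjusted p = 0.038). The liver X receptor target ABCA1 had 9.87, 9.90 and 9.82, with an adjusted p of 0.667 (limma).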
